A study of Homo sapiens with 6 samples.

Results

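The genes described here are 36 genes of the type I interferon response, chosen by name as well-known interferon-stimulated genes, of which 33 had a row in the table of 29571 genes. They were measured in DB, a human cell line derived from a diffuse large B-cell lymphoma. The groups are labelled DB_ZHX2 and DB_ZHX2_Mut4 (called ZHX2 and Mut4 cells here), with 3 RNA-seq libraries labelled in each, and both share the DB background. ZHX2 belongs to the zinc finger and homeobox family of transcription factors. How either form was introduced, what Mut4 changes and whether the cells came from single clones are not given in the labels, and the labels name no interferon treatment.

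Type I interferons are secreted proteins that bind a cell surface receptor made of IFNAR1 and IFNAR2. The kinases JAK1 and TYK2 then activate STAT proteins, among them STAT2, which acts with IRF9 in a complex named ISGF3. That complex binds the interferon-stimulated response element in the promoters of antiviral genes. Many of these genes keep a low level without added interferon, and B cells also hold IRF7, the factor that raises interferon production itself.

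Within a group the 3 columns were the same profile at different scales. Mut4 replicates 2 and 3 equalled 1.05 and 1.21 times replicate 1 at all 23808 genes above 0. The ZHX2 replicates were 1.33 and 0.897 times replicate 1 at 23368 of 23370 genes. Each group was therefore counted as 1 sample, no difference was tested, and the 3 values printed per group show the spread of the constants only. Whether the columns of a gene overlap between the groups thus depends on its ratio of FPKM alone, and shows no agreement among replicates. Column sums lay between 258080 and 383426 FPKM (fragments scaled by gene length and by library size), and read depth is not known. In bulk RNA, fewer cells with a transcript and less of it per cell cannot be told apart. B-cell markers were present in both groups: all 7 passed the filter, from EBF1 at 3.62 FPKM in Mut4 cells to CD79B at 249.2 FPKM. Among markers of other cells, the T cell gene CD3G and the myeloid genes S100A8 and FCGR3A were listed at 0 in both groups. Others were not: the myeloid gene LYZ passed the filter at 2.97 FPKM (Mut4) and 3.55 FPKM (ZHX2), as did the NK cell gene NKG7 at 3.24 and 2.16 FPKM, and CD14 was at 0.634 and 0.794 FPKM. Of 5 T cell markers with a row only TRAC passed, at 5.25 FPKM with Mut4, against 7.02 FPKM with ZHX2, and summed levels of the 5 were 6.17 and 8.10 FPKM. Of 5 epithelial markers 4 passed the filter, with a summed level over the 5 of 14.6 and 12.6 FPKM, and the part of such genes in the results below was not tested.

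Promoter sequence was examined because the response element is the feature that joins these genes. RefSeq promoter windows on GRCh38.p14, from 250 bases before to 50 after each gene's start, were found for 28 of the 36 genes. The core of the element was searched as GAAA, any 2 bases, then GAAA, on both strands and with overlapping matches included. At least 1 match was present in 20 of the 28 genes (71.4%), against 1195 of all 27305 genes with an entry (4.38%). Windows of 30 bases follow for genes whose values the results turn on, in the direction of each gene's transcription, with 1 match in capitals (a second match that overlaps it in ISG15 and BST2 is not marked).
DTX3L, chr3:122564322-122564351, plus strand: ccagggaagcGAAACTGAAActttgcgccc
PARP9, chr3:122564322-122564351, minus strand: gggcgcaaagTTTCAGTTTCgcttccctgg
ISG15, chr1:1013380-1013409, plus strand: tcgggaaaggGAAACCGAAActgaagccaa
ISG20, chr15:88638937-88638966, plus strand: taacaaactaGAAACTGAAAcagggtcggg
IFITM1, chr11:314024-314053, plus strand: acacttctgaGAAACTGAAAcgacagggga
IFITM3, chr11:320876-320905, minus strand: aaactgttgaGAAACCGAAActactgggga
IFIT5, chr10:89414513-89414542, plus strand: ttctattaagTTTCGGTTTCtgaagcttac
BST2, chr19:17405741-17405770, minus strand: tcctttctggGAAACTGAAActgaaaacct
SAMD9, chr7:93118096-93118125, minus strand: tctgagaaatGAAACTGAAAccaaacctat
PARP9 and DTX3L share 1 window, read on opposite strands. The RefSeq start of DTX3L at position 122564338 of chromosome 3 and the nearer of the PARP9 starts, at 122564300, lie 38 bases apart and point away from each other, and the match begins 6 bases before the start of DTX3L. The windows of IFI16, IFI35, IRF9, OAS1, STAT2, SAMD9L, XAF1 and HERC6 held no match to these letters. IRF7, IFITM2, IFIT2, MX2, OAS2, OASL, TRIM22 and USP18 had no entry.

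Most of the interferon response genes stood at a few FPKM or less in both groups. The median level (mean of both groups) was 1.25 FPKM over the 33 genes, against 0.454 FPKM over all 29571 rows. Among genes that passed the filter (1 FPKM or more in 3 or more of the 6 columns) it was 3.27 FPKM over 21 interferon response genes, against 5.70 FPKM over all 12643. Of the 33 genes, 7 reached a mean of 5 FPKM and 10 lay under 0.5 FPKM. IFI16, a sensor of DNA in the nucleus and cytoplasm, stood above all others: it was listed at 54.3, 57.1 and 65.5 FPKM in the Mut4 columns, and 50.4, 67.2 and 45.2 FPKM in the ZHX2 columns. The columns of IFI16 overlapped between the groups. It made up 44.8% of the summed FPKM of the 33 genes in Mut4 cells and 37.1% in ZHX2 cells. Without IFI16, the summed level was 72.7 FPKM with Mut4, against 92.0 FPKM with ZHX2.

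**Figure D1:**
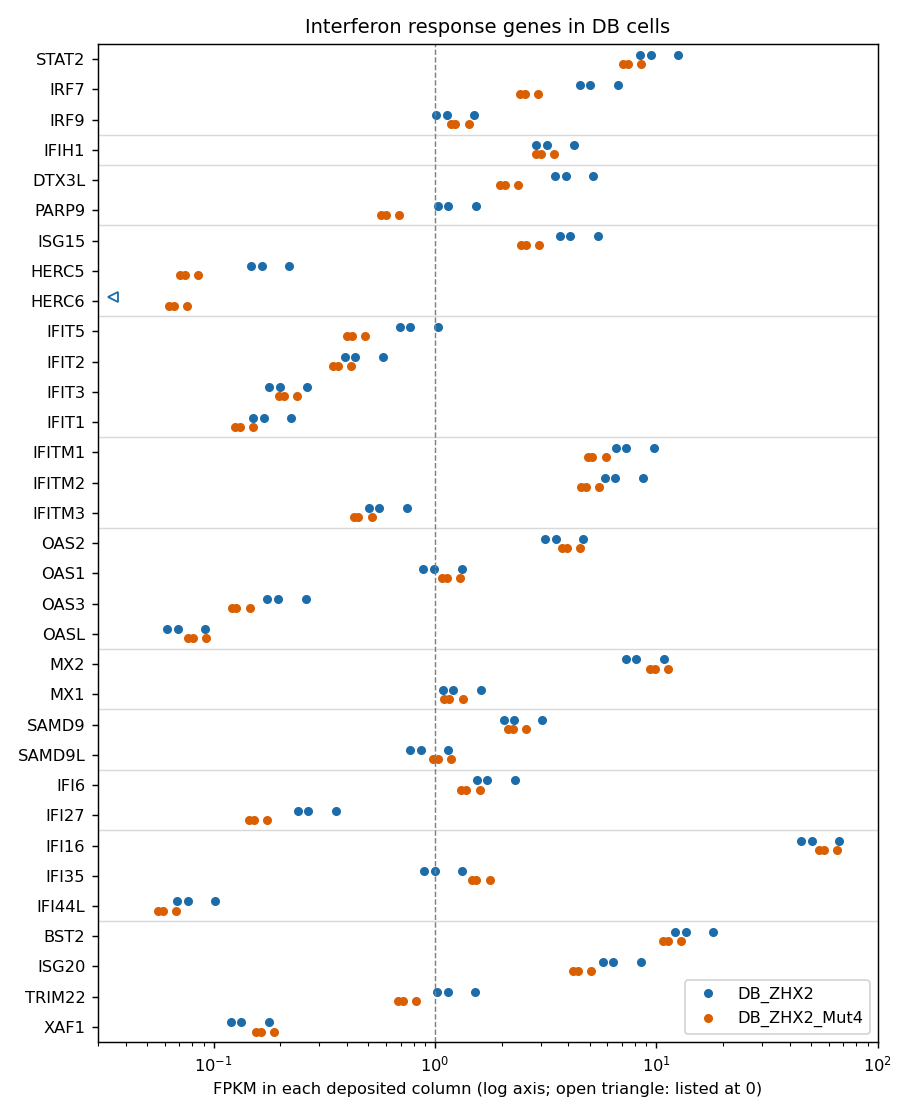
FPKM of the 33 interferon response genes with a row (log axis), grouped by role, in the 3 columns of DB_ZHX2 (blue) and of DB_ZHX2_Mut4 (orange). Dots of a group differ by constant factors only. The dashed line marks 1 FPKM, and the triangle marks HERC6, listed at 0 in ZHX2 cells. IRF7, DTX3L and PARP9 show the widest gaps among the genes that passed the filter, and IFI16 is the highest.

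Set against ZHX2 cells, Mut4 cells had lower levels of IRF7, of the pair PARP9 and DTX3L, and, by smaller ratios, of ISG15, ISG20, IFITM1 and IFITM2, while the MX, OAS and SAMD9 genes that passed the filter differed less, with signs for MX1, OAS2 and SAMD9 that turned when 1 ZHX2 column was left out. Levels were compared as log2(FPKM + 1) of Mut4 cells minus that of ZHX2 cells, called the log2 ratio, which understates the ratio of low genes. On this scale 2 of the 21 genes (IRF7 and DTX3L) were lower with Mut4 by 1.5-fold or more, and 0 were higher by that much. Over all 12643 genes, 2.56% were at least 1.5-fold lower and 2.54% at least 1.5-fold higher. With 1 column left out the count of 2 became 1 (without ZHX2 replicate 2) to 5 (without ZHX2 replicate 3). The share of all genes that were lower moved as well, to 1.6% and 3.97% in these 2 settings. By the plain ratio of FPKM, 6 of the 21 were at least 1.5 times lower (IRF7, PARP9, DTX3L, TRIM22, ISG15 and ISG20), against 4.72% of all genes, and 0 were higher, against 5.94%. PARP9 and TRIM22 passed the filter through their ZHX2 columns alone, so these 2 had to be lower in Mut4 cells. Without them 4 of 19 were at least 1.5 times lower by the plain ratio. For this and the other counts over 19 genes, the shares of all genes still include genes that passed through 1 group alone. A share without such genes was not computed. Log2 ratios were below 0 in 14 of the 21, against 46.2% of all genes. The median log2 ratio was −0.23 over the 21 genes, against 0.02 over all genes that passed. It was −0.10 over all 33 with a row, against 0 over all rows. Without PARP9 and TRIM22, 12 of 19 were below 0 and the median was −0.11.

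**Figure D2:**
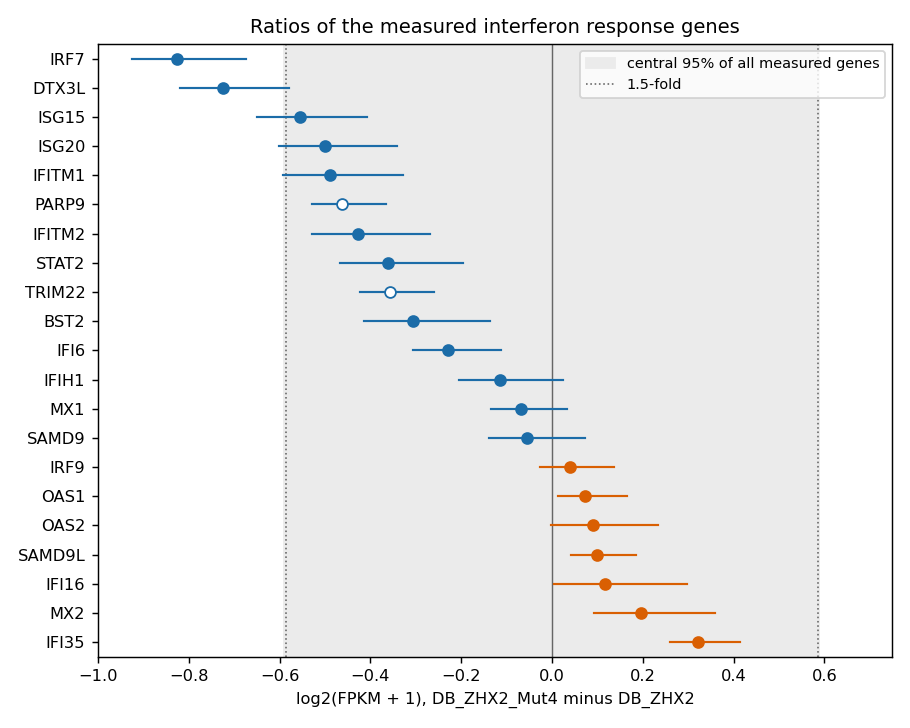
Log2 ratio, log2(FPKM + 1) of DB_ZHX2_Mut4 minus DB_ZHX2, of the 21 genes that passed the filter. Dots are values from the mean of 3 columns (blue below 0, orange above, open for PARP9 and TRIM22, which passed through DB_ZHX2 columns alone). Lines span the values with each column left out and are no error bars. The grey band holds the central 95% of all measured genes (−0.59 to 0.59), and dotted lines mark 1.5-fold. IRF7 and DTX3L lie outside the band.

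Among the transcription factors, IRF7 had the lowest log2 ratio of the list. It is the factor that amplifies type I interferon production after infection, and it lies on chromosome 11 from 612553 to 615999 (GENCODE release 29 on GRCh38). IRF7 was listed at 2.41, 2.54 and 2.91 FPKM in the Mut4 columns, and 5.03, 6.70 and 4.51 FPKM in the ZHX2 columns. Every Mut4 column lay below every ZHX2 column, and the mean level was 2.07 times lower in Mut4 cells (log2 ratio −0.83, 1.77-fold on that scale). Of all genes that passed, 1.19% had a lower log2 ratio than IRF7.

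STAT2 and IRF9, which act in ISGF3, did not share the size of that difference. STAT2 stood at 7.07, 7.44 and 8.53 FPKM in the Mut4 columns, and 9.42, 12.6 and 8.45 FPKM in the ZHX2 columns, for a log2 ratio of −0.36. Its highest Mut4 column was above its lowest ZHX2 column. IRF9, which gives the complex its DNA contact, had mean levels of 1.28 FPKM (Mut4) and 1.22 FPKM (ZHX2), a log2 ratio of 0.04 that was below 0 without ZHX2 replicate 3 or Mut4 replicate 3.

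PARP9 and DTX3L, neighbours on chromosome 3, differed by nearly the same factor. PARP9 (122527924 to 122564577) binds ADP-ribose and forms a complex with DTX3L (122564238 to 122575203), a ubiquitin ligase. DTX3L was listed at 1.97, 2.07 and 2.38 FPKM in the Mut4 columns, and 3.89, 5.19 and 3.49 FPKM in the ZHX2 columns. PARP9 was listed at 0.571, 0.601 and 0.689 FPKM in the Mut4 columns, and 1.15, 1.53 and 1.03 FPKM in the ZHX2 columns. In both genes every Mut4 column was below every ZHX2 column. The mean level in Mut4 cells was 1.96 times lower for DTX3L and 1.99 times lower for PARP9. Their log2 ratios were −0.73 and −0.46, further apart because the added 1 FPKM weighs more on the lower gene. The annotated ends of the genes overlap on opposite strands, and the sources used here do not say whether counting used strand. PARP14, which lies on the same chromosome and was placed among the other interferon-stimulated genes, had a log2 ratio of −0.21.

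In the ISG15 system, which attaches the ubiquitin-like protein ISG15 to other proteins, the modifier itself was lower in Mut4 cells. ISG15 was listed at 2.45, 2.58 and 2.96 FPKM in the Mut4 columns, and 4.07, 5.43 and 3.65 FPKM in the ZHX2 columns. The columns did not overlap, and the log2 ratio was −0.56 (1.65 times lower by plain FPKM). The activating enzyme UBA7 and the conjugating enzyme UBE2L6 had log2 ratios of 0.09 and 0.25. HERC5, the main ISG15 ligase in human cells, reached a mean of 0.177 FPKM at most, and HERC6 was at 0.0681 FPKM with Mut4 and listed at 0 with ZHX2. USP18, which removes ISG15, had no row and was not analysed here, like IFI44 and RSAD2.

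The IFITM proteins, which hinder the fusion of viruses with cell membranes, lay on the lower side in Mut4 cells. IFITM1 was listed at 4.89, 5.14 and 5.90 FPKM in the Mut4 columns, and 7.29, 9.72 and 6.54 FPKM in the ZHX2 columns (log2 ratio −0.49). IFITM2 was listed at 4.55, 4.79 and 5.49 FPKM in the Mut4 columns, and 6.50, 8.66 and 5.83 FPKM in the ZHX2 columns (log2 ratio −0.43). For both, all Mut4 columns lay below all ZHX2 columns. IFITM3 did not pass the filter, at means of 0.465 and 0.603 FPKM. The 3 genes are close copies on chromosome 11, and the annotated gene of IFITM2 contains that of IFITM1 on the same strand, so the division of reads among them is uncertain.

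Other effectors on the lower side in Mut4 cells were ISG20, BST2 and TRIM22. ISG20, an exonuclease that degrades viral RNA, was listed at 4.20, 4.42 and 5.07 FPKM in the Mut4 columns, and 6.38, 8.50 and 5.72 FPKM in the ZHX2 columns, with no overlap (log2 ratio −0.50). BST2, or tetherin, holds budding viruses at the cell surface and was the highest after IFI16. It was listed at 10.7, 11.2 and 12.9 FPKM in the Mut4 columns, and 13.6, 18.1 and 12.2 FPKM in the ZHX2 columns, where the columns overlapped (log2 ratio −0.31). TRIM22, a ubiquitin ligase that restricts retroviruses, was listed at 0.680, 0.716 and 0.821 FPKM in the Mut4 columns, and 1.14, 1.52 and 1.02 FPKM in the ZHX2 columns (log2 ratio −0.36). Its annotated gene overlaps that of TRIM5 on the opposite strand. IFI6, a small membrane protein that protects cells from death, had means of 1.43 FPKM (Mut4) and 1.85 FPKM (ZHX2).

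The GTPases MX1 and MX2, which bind viral nucleoproteins and capsids, showed no common direction. MX2 was listed at 9.36, 9.86 and 11.3 FPKM in the Mut4 columns, and 8.13, 10.8 and 7.29 FPKM in the ZHX2 columns, with overlapping columns (log2 ratio 0.20). MX1 was lower in level, with 1.10, 1.16 and 1.33 FPKM in the Mut4 columns and 1.21, 1.61 and 1.09 FPKM in the ZHX2 columns, a log2 ratio of −0.07 that was above 0 without ZHX2 replicate 2. The neighbouring OAS genes on chromosome 12 encode enzymes activated by double-stranded RNA. In Mut4 and ZHX2 cells respectively, OAS2 was at 4.09 and 3.78 FPKM (log2 ratio 0.09, below 0 without ZHX2 replicate 3), OAS1 at 1.17 and 1.06 FPKM and OAS3 at 0.131 and 0.210 FPKM. OASL, on the same chromosome, was at 0.0834 and 0.0741 FPKM.

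The remaining genes that passed were IFIH1, SAMD9, SAMD9L and IFI35. IFIH1, or MDA5, the sensor of long double-stranded RNA, was at 3.10 FPKM with Mut4, against 3.44 FPKM with ZHX2. SAMD9 and SAMD9L, paired inhibitors of growth and viral translation, had log2 ratios of −0.06 and 0.10, and that of SAMD9 was above 0 without ZHX2 replicate 2, like that of IFIH1. IFI35, a partner of NMI, was the 1 gene that passed with every Mut4 column above every ZHX2 column. It was listed at 1.46, 1.54 and 1.77 FPKM in the Mut4 columns, and 0.995, 1.33 and 0.893 FPKM in the ZHX2 columns (log2 ratio 0.32). Counted over the 21 genes, 8 had all Mut4 columns below all ZHX2 columns, against 8.86% of all genes, and 1 the reverse, against 11.0%. Such a count is another cutoff on the plain ratio of FPKM, since the columns of a group are multiples of 1 profile. Those 8 were IRF7, DTX3L, PARP9, TRIM22, ISG20, ISG15, IFITM1 and IFITM2, among which PARP9 and TRIM22 could not overlap by the way they passed the filter. Without this pair the count was 6 of 19.

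The 12 genes under the filter lay between 0 and 1.03 FPKM in every column. They included all IFIT genes, which encode proteins that bind foreign RNA and are among the genes most strongly raised by interferon in many cells. IFIT5 was the highest of them, at 0.401, 0.422 and 0.484 FPKM in the Mut4 columns, and 0.771, 1.03 and 0.692 FPKM in the ZHX2 columns, without overlap. IFIT1, IFIT2 and IFIT3 had means of 0.135, 0.377 and 0.213 FPKM with Mut4, and of 0.181, 0.468 and 0.214 FPKM with ZHX2. Means of IFI27, IFI44L and XAF1 were 0.157, 0.0610 and 0.169 FPKM with Mut4, against 0.288, 0.0823 and 0.143 FPKM with ZHX2. Log2 ratios of the 12 were below 0 in 9, from −0.35 to 0.09. Over all 29571 rows 11975 were below 0, and 3866 were at 0 in both groups. A share over the rows under the filter was not computed, and at such levels the sign is uncertain.

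The authors' deposited table gave 5 of the 33 genes a q-value under 0.05, all lower in Mut4 cells, where 1.78% of all rows had such a q and that direction and 1.31% had it in the other. Of the 21 genes that passed the filter 4 had such a q, against 3.17% of all genes that passed, and 2 of 19 without PARP9 and TRIM22. The deposited q-values were 0.00014 for IRF7, 0.00026 for DTX3L, 0.00046 for PARP9, 0.0098 for IFIT5 and 0.017 for TRIM22 in the authors' deposited table. ISG20 and ISG15 followed there at 0.053 and 0.063. Only IRF7 and PARP9 carried the mark of significance in the authors' deposited table (0.747% of rows were so marked and lower in Mut4 cells). DTX3L, with a smaller q than PARP9, was not marked. The deposited log2 ratios (ZHX2 over Mut4) were 1.06 for IRF7, 1.00 for PARP9 and 0.98 for DTX3L, and the rule behind the mark is not known here. Since its replicate columns are multiples of 1 profile, what spread those q-values rest on is not known.

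Most other lists of the pathway had medians near 0, and those of receptors and kinases, STAT and IRF genes, sensors, negative regulators and other interferon-stimulated genes changed sign with the ZHX2 column that was left out. No interferon gene passed the filter: of 21 listed ligands 7 had a row, and the highest level was 0.262 FPKM, of IFNG in ZHX2 cells. IFNB1, the first interferon made by most cells, was at 0.113 FPKM in Mut4 cells and listed at 0 in ZHX2 cells. The 9 receptors and kinases all passed, with 0 at 1.5-fold in either direction and a median log2 ratio of −0.05. Within them the receptor chains went opposite ways: IFNAR2 was at 3.56 FPKM with Mut4, against 2.24 FPKM with ZHX2 (log2 ratio 0.49), and IFNAR1 at 3.49 and 4.41 FPKM (−0.27). IFNGR1, of the interferon gamma receptor, had a log2 ratio of −0.33. Of 10 other STAT and IRF genes, 0 were at 1.5-fold and the median was 0.07, with IRF1 at −0.20, IRF3 at 0.18 and STAT5A at 0.17. IRF4, the factor of activated B cells, was by far the most abundant at 91.3 FPKM with Mut4, against 90.7 FPKM with ZHX2.

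Sensors of nucleic acids and inhibitors of the pathway were next. Of 20 sensing genes 14 passed, 0 at 1.5-fold, with a median of −0.01. The largest log2 ratios there were 0.51 for the DNA sensor AIM2, −0.42 for the adaptor TICAM1 and −0.32 for the DNA sensor CGAS. DDX58, or RIG-I, did not pass, at 0.206 FPKM with Mut4, against 0.660 FPKM with ZHX2. Among 10 negative regulators 8 passed, 0 at 1.5-fold, with a median of 0.03, led by the phosphatases PTPN1 (0.19) and PTPN6 (0.17) and the SUMO ligase PIAS1 (−0.17). SOCS1, which blocks JAK kinases, did not pass, at 0.481 FPKM (Mut4) and 1.15 FPKM (ZHX2).

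The 36 other interferon-stimulated genes that passed, of 44 listed, had a median log2 ratio of −0.01, with 19 below 0, 17 above and 0 at 1.5-fold. STARD5 (0.50), NT5C3A (−0.44) and RTP4 (−0.39) were farthest from 0. RTP4 passed the filter through its ZHX2 columns alone, so it had to be lower in Mut4 cells. In the interferon gamma-responsive list 6 of 16 genes passed, 2 at least 1.5-fold lower and 1 higher in Mut4 cells. Of the 6, GBP3 (log2 ratio 0.28) passed through its Mut4 columns alone, so it had to be higher in Mut4 cells. IFI30, a lysosomal thiol reductase, was at 8.30 FPKM with Mut4, against 19.7 FPKM with ZHX2 (log2 ratio −1.15). WARS1, the cytosolic tryptophanyl-tRNA synthetase, which amino acid stress also raises, was at 55.2 and 87.8 FPKM (−0.66). CXCL10, a chemokine, went the other way, at 4.35 FPKM with Mut4, against 2.23 FPKM with ZHX2 (0.73). The deposited table also annotates genes with a Reactome term for expression of interferon-induced genes. Of 28 genes with that term 17 passed, 7 below 0 and 10 above, with a median of 0.03. Those among the 36 numbered 20, of which 11 passed, 6 below 0 and 5 above, with a median of −0.07. Of the 8 not among the 36, 6 passed, with a median of 0.05.

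**Figure D3:**
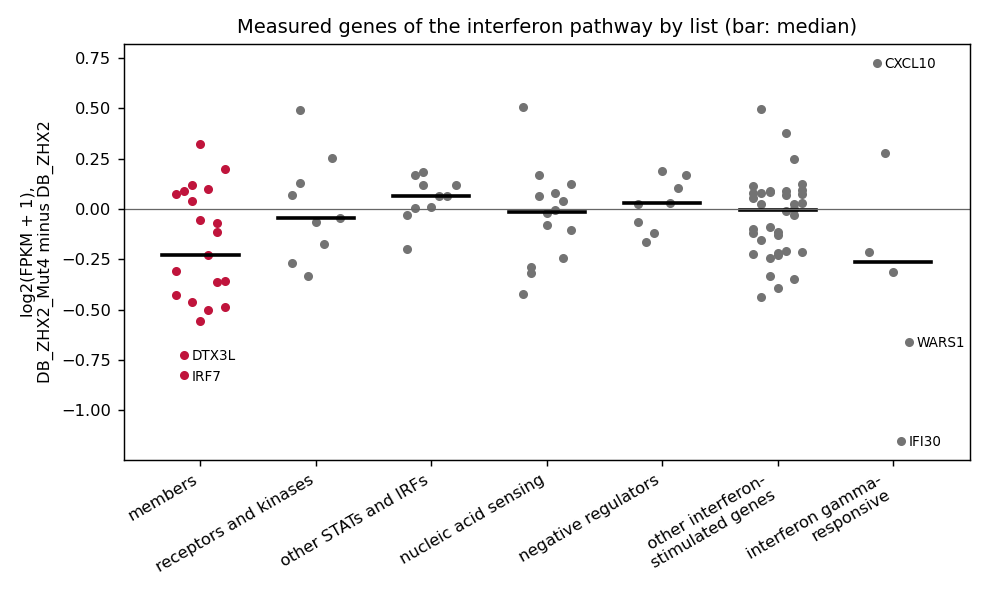
Log2 ratio, log2(FPKM + 1) of DB_ZHX2_Mut4 minus DB_ZHX2, of measured genes in each list of the interferon pathway. Each dot is 1 gene, bars are list medians, and genes at least 1.5-fold apart are named. The filter fixed the signs of PARP9, TRIM22 and RTP4 (below 0) and of GBP3 (above 0), which are included. The median is −0.23 for the 21 interferon response genes (red) and −0.26 for the 6 interferon gamma-responsive genes, and lies between −0.05 and 0.07 in the other lists (grey), whose signs changed when ZHX2 replicate 2 or 3 was left out.

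Log2 ratios were also set beside the promoter windows, a comparison chosen after the values were seen. Of the 21 genes that passed, 10 had a match to the element core and all 10 had log2 ratios below 0, from −0.73 (DTX3L) to −0.06 (SAMD9), with a median of −0.38. PARP9, whose sign its passing of the filter fixed, shares its match with DTX3L. Without PARP9 there were 9 genes, with a median of −0.31. Of these, IFIH1, MX1 and SAMD9 had log2 ratios above 0 when ZHX2 replicate 2 was left out (0.03, 0.03 and 0.07), a setting that moved the median of all genes to 0.17. A window without a match was found for 6 genes, with a median of 0.09. Among them STAT2 was below 0, and IFI16, IFI35, IRF9, OAS1 and SAMD9L were above 0. IRF9 was below 0 without ZHX2 replicate 3 or Mut4 replicate 3. The 5 genes with no promoter entry had a median of −0.36. IRF7, IFITM2 and TRIM22, whose sign the filter fixed, were below 0 there, and MX2 and OAS2 were above. The other interferon-stimulated genes divided less by match. Log2 ratios were below 0 in 10 of 14 genes with a match (71.4%) and in 8 of 15 without (53.3%), but medians were −0.06 and −0.10. The 10 include RTP4, whose sign the filter fixed, and values without it were not computed. Over all genes that passed, 181 of 347 with a match (52.2%) and 4009 of 8523 without (47.0%) had log2 ratios below 0.

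**Figure D4:**
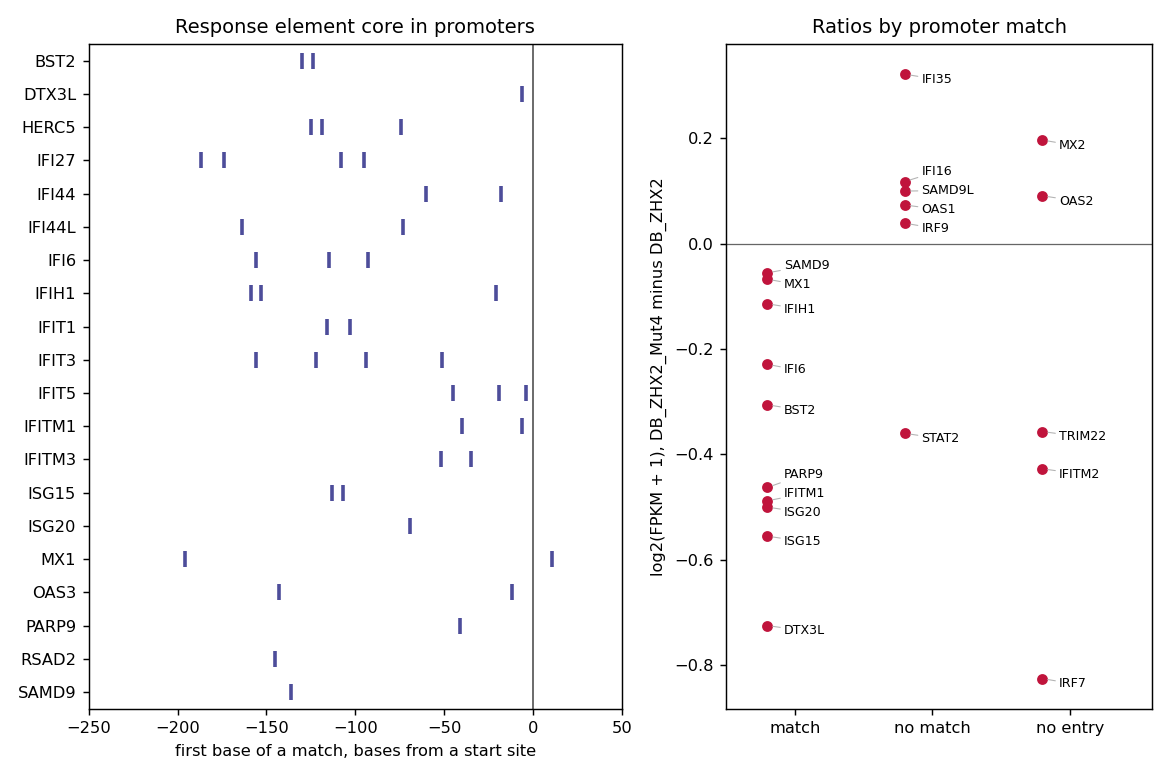
Left, positions of matches to the response element core in RefSeq promoter windows of 20 interferon response genes, in bases from a start site (genes with several start sites show the matches of each). Right, log2 ratio, log2(FPKM + 1) of DB_ZHX2_Mut4 minus DB_ZHX2, of the 21 genes that passed the filter, split into genes with a match, without one and with no promoter entry. All 10 genes with a match, PARP9 by its way through the filter, lie below 0 (IFIH1, MX1 and SAMD9 not without ZHX2 replicate 2), and 5 of 6 without lie above (IRF9 not without ZHX2 replicate 3 or Mut4 replicate 3).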

How the data were processed

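Poly(A) RNA was selected from total RNA of DB cells and libraries were made with a dUTP second strand, per the labels' protocols. Tools were fastp, HISAT2, StringTie and edgeR with build GRCh38, per the submitters' processing notes; settings are not given in the sources used here. The authors deposited 1 table of FPKM per library, and for every gene a p-value, a q-value, and the ratio in linear and log2 form, per the file headers. The deposited ratio is ZHX2 over Mut4, opposite to the log2 ratios here. Columns of a group were multiples of 1 profile (tolerance 1e-06), so each group's mean was its level, and the planned limma fit was not run. In 3 rows the FPKM, ratio and log2 value did not match, and these were left out. Genes, lists and tests were chosen with earlier results of these data known. All 36 genes are accounted for; of other lists the 3 farthest from 0 were named, others after their values were seen. Symbols MB21D1, TMEM173 and WARS were matched as CGAS, STING1 and WARS1. Alternatives were a pseudocount of 0.1, no filter or 5 FPKM, median of ratios, quantile normalization, replicate 1 alone and each column left out. A plain ratio and a filter on the mean level were added after seeing the data, as were counts without PARP9 and TRIM22. The steps were tested on simulated data. Python 3.11.15, numpy 2.4.6 and pandas 2.3.3 were used. Values of some single genes of the pathway lists are not reported here.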

Additional observations from a re-analysis of the deposited data

How the results depend on the processing

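No paired analysis was possible because replicate columns differ by a constant factor alone, and no test was made; limma with a replicate block was not run for that reason. Over 14 alternatives 0 of the interferon response genes were at least 1.5-fold higher in Mut4 cells. The share of all genes that were higher ran from 1.34% (no filter) to 5.86% (no pseudocount). The number at least 1.5-fold lower was 2, against 2.56% of all genes. It was 5 at a pseudocount of 0.1 (against 4.44%) and 6 with no pseudocount (against 4.69% of 12627 genes). With the filter at 5 FPKM, which leaves 7 genes, it was 0 (against 2.47%). With a column left out, that number ranged from 1 (without ZHX2 replicate 2, against 1.6% of all genes) to 5 (without ZHX2 replicate 3, against 3.97%). Genes with a log2 ratio below 0 numbered 14 of 21, against 46.2% of all genes that passed. Without a filter they numbered 23 of 33, against 11975 of all 29571 rows, of which 3866 were at 0 in both groups. With the filter at 5 FPKM they numbered 5 of 7, and the share of all genes was not computed there. The median of the list was −0.36 with the filter at 5 FPKM, −0.10 without a filter and −0.33 with no pseudocount, −0.31 to −0.11 with a column left out, and −0.11 without PARP9 and TRIM22. Without ZHX2 replicate 2 the median of all genes was 0.17. Relative to the median of all genes, the list lay at −0.25, and between −0.38 and −0.10 over the alternatives. The interferon gamma-responsive median was −0.49 with the filter at 5 FPKM, −0.12 without a filter and −0.37 to −0.092 with a column left out. Other medians changed sign with a column left out: receptors and kinases from −0.15 to 0.12, STAT and IRF genes from −0.041 to 0.23, sensing from −0.11 to 0.14, negative regulators from −0.079 to 0.20 and other interferon-stimulated genes from −0.11 to 0.14, the upper ends without ZHX2 replicate 2 and the lower ends without ZHX2 replicate 3. Of the 21 genes 16 kept their sign throughout. IFIH1, MX1 and SAMD9 were above 0 without ZHX2 replicate 2. OAS2 and IRF9 were below 0 without ZHX2 replicate 3, and IRF9 also without Mut4 replicate 3. Leaving out a column only rescales its group by 1 constant. Whether a sign held then follows from the size of the ratio and shows no agreement among replicates. Depth is unknown, so genes under 1 FPKM carry an unknown counting error.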
